A study of Homo sapiens with 12 samples.

Results

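Mitosis and spindle genes were followed in 3 lines of gastric cancer cells (SNU601, MKN1 and AGS) that had received the solvent DMSO, Rhosin, JK136 or JK139. The list named 44 genes for mitotic cyclins and kinases, centromere and kinetochore proteins, kinesin motors, spindle proteins and cytokinesis factors. A transcript cluster, the group of array probes read together as 1 transcript, carried the symbol of 35 of them, and each of these 35 had 1 such cluster. The other 9 (UBE2C, CENPE, CENPF, NUF2, SPC25, TPX2, ASPM, DLGAP5 and ANLN) were not analysed here. All 35 measured genes had mean levels above the filter on low values (4.61 on the log2 scale), so they stood among 8930 genes tested of 14884 symbols measured. The list is one of gene functions and uses no measured value, but it was drawn up with earlier results of these data known.

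Total RNA of each line under each treatment was read on 1 Affymetrix Human Gene 2.0 ST array, which makes 12 arrays, 4 per line and 3 per treatment. AGS, MKN1 and SNU601 are established lines from human gastric cancers, and no other alteration is named in the labels. Rhosin is a small molecule that inhibits the GTPase RhoA by blocking its activation by exchange factors. JK136 and JK139 are given only by these code names, and the labels state neither dose nor time of exposure for any of the 3 compounds, so all comparisons between them are at unknown doses and times. For a treatment the 3 lines served as replicates, and for a line the 4 treatments did, with no second culture of any combination. The p-values therefore measure how differences vary from line to line or from treatment to treatment, and not how cultures vary.

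Array medians lay between 4.14 and 4.20 on the log2 scale, and over all clusters Pearson's r between arrays of the same line was 0.978 to 0.988. Of 5 epithelial markers, 4 were measured and all had mean levels above the filter. EPCAM, an adhesion protein of epithelial cells, had a level of 10.0 ± 0.06 in AGS and 10.2 ± 0.13 in SNU601 but 6.49 ± 0.25 in MKN1 (log2, SD, 4 arrays), while the keratin KRT18 lay between 9.63 and 10.7 in all 3. The fibroblast marker LUM stood at 8.76 ± 0.39 in MKN1 against 2.90 and 3.21 in AGS and SNU601, and the other fibroblast, immune and endothelial markers measured (DCN, CD14, PECAM1 and VWF) had means below the filter over the 12 arrays. The monocyte marker CD14 was also highest in MKN1, at 4.67 ± 0.29 against 3.33 ± 0.21 in AGS and 3.46 ± 0.18 in SNU601 (SD). LUM and CD14 moved with MKN1, and their part in the differences of MKN1 from the other lines was not tested.

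Cells enter mitosis when cyclin B bound to the kinase CDK1 is switched on by CDC25 phosphatases, and they leave it when the anaphase-promoting complex has its targets destroyed. Between these points the Aurora and Polo-like kinases, the kinetochore proteins and the kinesin motors build the spindle, attach the chromosomes to it and pull them apart, and the cytokinesis factors then split the cell, in part by switching RhoA on at the cell equator. Most of these genes are transcribed in G2 and mitosis and held down in resting cells. Their promoters often carry CCAAT boxes, which bind NF-Y, and the cell cycle genes homology region (CHR), which binds the MuvB complexes with B-MYB, FOXM1 or the DREAM repressor.

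The promoter letters of 31 of the 35 measured genes could be read in RefSeq's windows on GRCh38.p14. Each window is 300 bases long, from 250 bases before to 50 bases from the annotated start on. The CHR, searched as TTTGAA or TTCGAA on both strands, occurred in 24 of the 31 (77.4%), against 17.0% of 10749 genes with a cluster symbol and a promoter. CCAAT, searched on both strands, occurred in 27 of 31 (87.1%) against 41.4%, and at least 2 copies occurred in 15 of 31 (48.4%) against 14.5%. Both motifs together were in 21 of 31 (67.7%) against 8.61%. The E2F motif typical of G1/S genes, searched as TTTGGCGC or TTTCGCGC on both strands, was in CDK1, KIF15 and NUSAP1 (9.68%) against 1.83%. For a gene with several starts, the window with the most matches was counted. A CCAAT match and its reverse can overlap, as in CCAATTGG. The sets were chosen by what the genes do, so these shares describe the list. A match of letters is not a measured binding site.

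The places of the motifs were read in 25 genes with 1 annotated start, and those in genes outside the list were not. The middle of the CHR lay a median of 19.5 bases before the start in 20 genes, with 20 of 25 matches within 50 bases of it. CCAAT matches in 21 genes had a median of 77 bases before the start, and 34 of 41 lay between 150 bases before it and the start itself.

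**Figure D1:**
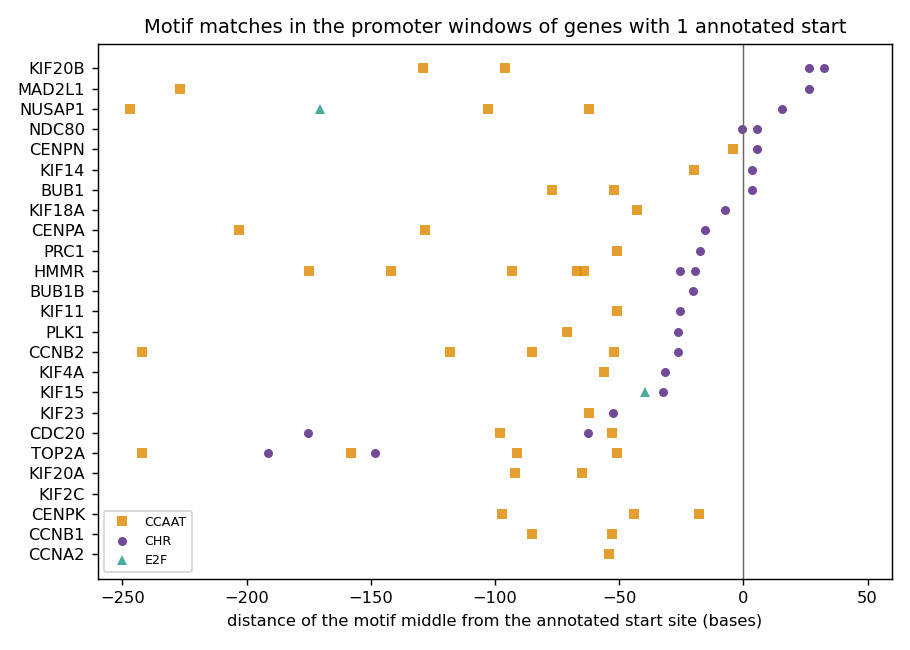
Distance of motif middles from the annotated start site (x axis, bases; 0 is the start) for the 25 genes with 1 annotated start (rows, sorted by the position of the CHR), with CCAAT as squares, CHR as circles and E2F as triangles. Most circles sit within 50 bases of the start and most squares lie further upstream.

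The windows of 6 genes are shown as examples, from 150 bases before to 20 bases from the start on. The 6 were picked after their values were seen, and none of their treatment differences was called. HMMR, KIF18A, CCNB2 and PLK1 have TTTGAA in the window, and CENPK and CCNB1 have neither TTTGAA nor TTCGAA. Other forms of the CHR were not searched, so their absence from CENPK and CCNB1 is not shown. Capitals mark CHR (TTTGAA or its reverse TTCAAA) and CCAAT (or its reverse ATTGG). The windows are HMMR at chr5:163460482-163460651 on the plus strand, KIF18A at chr11:28108137-28108306 on the minus strand, CCNB2 at chr15:59104996-59105165 on the plus strand, PLK1 at chr16:23678739-23678908 on the plus strand, CENPK at chr5:65563149-65563318 on the minus strand and CCNB1 at chr5:69167000-69167169 on the plus strand.
HMMR: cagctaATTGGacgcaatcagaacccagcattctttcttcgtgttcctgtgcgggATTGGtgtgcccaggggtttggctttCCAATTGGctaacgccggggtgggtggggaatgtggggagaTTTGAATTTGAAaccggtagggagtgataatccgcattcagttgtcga
KIF18A: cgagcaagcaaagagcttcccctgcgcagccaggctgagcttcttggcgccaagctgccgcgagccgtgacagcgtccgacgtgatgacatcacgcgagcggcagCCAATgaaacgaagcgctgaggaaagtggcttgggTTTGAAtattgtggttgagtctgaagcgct
CCNB2: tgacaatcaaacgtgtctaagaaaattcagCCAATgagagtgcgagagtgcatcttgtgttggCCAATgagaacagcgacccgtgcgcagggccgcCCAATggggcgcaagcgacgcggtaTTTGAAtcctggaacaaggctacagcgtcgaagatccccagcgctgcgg
PLK1: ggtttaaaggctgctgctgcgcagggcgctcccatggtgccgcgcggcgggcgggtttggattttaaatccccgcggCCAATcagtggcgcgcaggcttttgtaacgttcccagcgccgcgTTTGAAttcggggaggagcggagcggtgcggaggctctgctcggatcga
CENPK: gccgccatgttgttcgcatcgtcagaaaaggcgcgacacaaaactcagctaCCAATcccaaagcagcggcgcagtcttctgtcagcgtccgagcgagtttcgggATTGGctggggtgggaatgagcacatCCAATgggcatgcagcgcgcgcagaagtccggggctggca
CCNB1: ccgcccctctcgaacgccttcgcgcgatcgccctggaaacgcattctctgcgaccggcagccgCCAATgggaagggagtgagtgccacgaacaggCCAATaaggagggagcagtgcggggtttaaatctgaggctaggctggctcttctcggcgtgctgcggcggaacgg

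HMMR has 2 CHR copies side by side and 4 CCAAT matches in this window, and its 5 CCAAT matches in the full window are the most among the 31 genes. CCNB2 has 3 CCAAT matches ahead of a CHR, and KIF18A and PLK1 have 1 of each. CENPK has 3 CCAAT matches and CCNB1 2, with no match to the searched CHR forms. The comparison with the most uniform shift was JK139 against JK136. There the 24 genes with a searched CHR form had a median log2 difference of 0.13 with 23 higher. The 7 genes without a match had a median of 0.13 with 6 higher. The 7 were not searched for other forms of the CHR, so this split does not part genes with and without a CHR. It was made after the differences were known and was not tested.

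The order of the lines depended on the gene. The lowest mean of the 3 lines was in AGS for 23 of the 35 genes, in MKN1 for 10 and in SNU601 for 2, where AGS, MKN1 and SNU601 were lowest for 35.9%, 37.9% and 26.2% of all genes tested. The highest was in MKN1 for 17, in SNU601 for 15 and in AGS for 3, against 37.5%, 33.4% and 29.1% of all genes. In mean level MKN1 led in KIF20A, PLK1, CDC20 and CCNB1. SNU601 led in CCNB2, AURKB, CDK1 and TTK, the last without a called difference from MKN1. In extracts of whole cultures, a larger share of cells in mitosis and more transcript per mitotic cell cannot be told apart.

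With limma, 20 genes of the list were higher and 4 lower in MKN1 than in AGS at an adjusted p under 0.05. The same call was made higher for 35.3% and lower for 31.0% of all genes tested, so the share called in the list (68.6%) was close to the background and its direction leaned upward. SNU601 was called higher than AGS in 22 genes and lower in 0, against 29.9% of all genes called higher and 22.8% called lower. SNU601 was higher than MKN1 in 10 genes and lower in 12, against 32.3% and 31.1% of all genes, which is a share near the background. The median log2 difference of the list was 0.27 for MKN1 against AGS, 0.28 for SNU601 against AGS and 0.016 for SNU601 against MKN1, where all genes had medians of 0.021, 0.051 and 0.023.

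**Figure D2:**
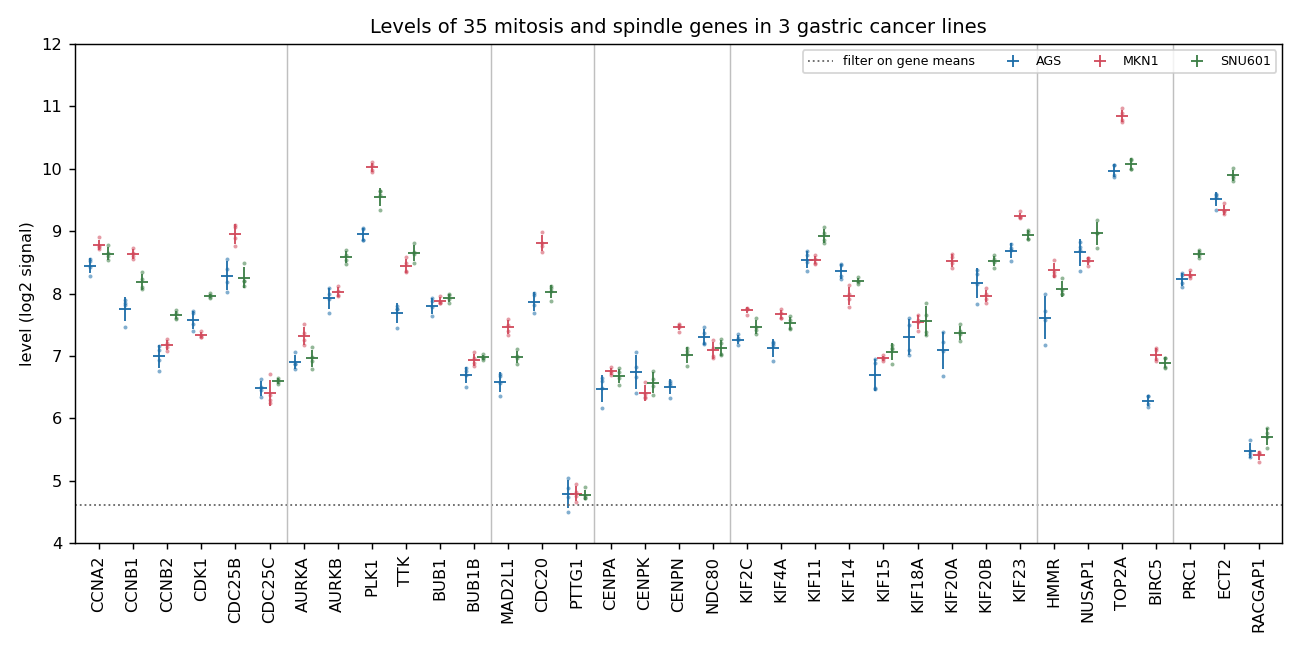
Level (y axis, log2 signal) of each of the 35 genes (x axis, grouped by role between the grey lines) in AGS, MKN1 and SNU601. Small dots are the 4 arrays of a line and the cross shows their mean ± SD; MKN1 stands highest for KIF20A, PLK1, CDC20 and TOP2A and SNU601 for CDK1, CCNB2 and AURKB. Levels of different genes are read by different probes and are not to be set against each other.

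The cyclins, CDK1 and the CDC25 phosphatases did not share 1 order of lines. CCNB1 codes for cyclin B1 (cluster 16985599, chromosome 5). Its levels in AGS were 7.81 with DMSO, 7.47 with Rhosin, 7.86 with JK136 and 7.89 with JK139. In MKN1 they were 8.65, 8.56, 8.60 and 8.73 in the same order, and in SNU601 8.34, 8.10, 8.07 and 8.24. The 3 lines did not overlap, with MKN1 above AGS by 0.88 ± 0.09 (log2, SE, adjusted p = 2.2e-06) and SNU601 at −0.445 from MKN1. Its partner gene CCNB2, cyclin B2, had another order, with SNU601 at 7.66 ± 0.07, MKN1 at 7.18 ± 0.08 and AGS at 6.99 ± 0.18 (SD, 4 arrays). MKN1 and AGS overlapped for CCNB2, and their difference of 0.19 had an adjusted p of 0.0811, which passed the threshold without the MKN1 DMSO (0.0222) or the AGS DMSO array (0.043). CCNA2, cyclin A2, was higher in MKN1 than in AGS by 0.33 ± 0.08 (SE), and neither other difference was called, although SNU601 against AGS was called without the AGS JK136 array (adjusted p 0.0484) or with a trended and robust prior (0.0375).

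CDK1 (cluster 16705159, chromosome 10) is the kinase that the mitotic cyclins switch on. Its levels in SNU601 were 8.001, 7.94, 7.98 and 7.94 with DMSO, Rhosin, JK136 and JK139, in AGS 7.69, 7.40, 7.51 and 7.72, and in MKN1 7.31, 7.34, 7.30 and 7.40. SNU601 lay above both other lines without overlap, by 0.39 ± 0.08 over AGS and 0.63 ± 0.08 over MKN1 (SE). MKN1, with the highest CCNB1, had the lowest CDK1, at −0.24 ± 0.08 from AGS (adjusted p = 0.0202), a call that was lost when the AGS DMSO, AGS JK139 or MKN1 DMSO array or the SNU601 line was left out, with adjusted p between 0.0524 and 0.0778. CDC25B, a phosphatase that activates CDK1, stood at 8.96 ± 0.16 in MKN1 against 8.29 ± 0.23 in AGS and 8.25 ± 0.17 in SNU601 (SD). CDC25C, its relative, was called in no comparison of lines, although SNU601 against MKN1 was called without the MKN1 Rhosin array (adjusted p 0.0114) or with array weights (0.047).

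Of the 6 kinase genes, which drive spindle assembly and the checkpoint, 4 were called higher in MKN1 than in AGS and 4 in SNU601 than in AGS. The shares of all genes tested that were called higher were 35.3% and 29.9%. PLK1, Polo-like kinase 1 (cluster 16817017, chromosome 16), had levels of 8.86, 9.05, 8.86 and 9.03 in AGS, 10.1, 10.1, 9.99 and 9.95 in MKN1 and 9.64, 9.65, 9.34 and 9.58 in SNU601, again in the order DMSO, Rhosin, JK136, JK139. The lines did not overlap, and MKN1 exceeded AGS by 1.07 ± 0.08 (SE, adjusted p = 2.61e-07). AURKB, the Aurora kinase of the chromosomal passenger complex, was instead highest in SNU601 at 8.58 ± 0.10, and AGS at 7.92 ± 0.17 and MKN1 at 8.03 ± 0.08 (SD) overlapped, with an adjusted p of 0.2257. AURKA, the spindle pole kinase, was higher in MKN1 than in AGS by 0.43, and SNU601 stood at −0.37 from MKN1. TTK, the checkpoint kinase Mps1, was higher than in AGS by 0.95 ± 0.10 in SNU601 and by 0.76 ± 0.10 in MKN1 (SE). SNU601 and MKN1 overlapped for TTK and their difference was not called (limma, adjusted p 0.0876). It was called without the SNU601 JK136 array (0.0386) or with a trended and robust prior (0.0479). BUB1B, the checkpoint protein BubR1, exceeded AGS by 0.28 in SNU601 and 0.25 in MKN1, and BUB1, which recruits it, was called in no comparison of lines.

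Among genes of anaphase control, MKN1 was highest for CDC20 and MAD2L1. CDC20 activates the anaphase-promoting complex, and its level was 8.81 ± 0.13 in MKN1, 8.03 ± 0.11 in SNU601 and 7.87 ± 0.15 in AGS (SD), with SNU601 and AGS overlapping. MAD2L1 codes for Mad2, the checkpoint protein that holds CDC20 back, and stood at 7.46 ± 0.11, 6.99 ± 0.10 and 6.58 ± 0.16 in the same lines, all called different. PTTG1, securin, lay near the filter, at 4.79 ± 0.23 in AGS, 4.80 ± 0.12 in MKN1 and 4.77 ± 0.08 in SNU601.

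The 4 centromere and kinetochore genes split between the lines. CENPN, a kinetochore protein that reads the centromeric nucleosome, was higher in MKN1 than in AGS by 0.96 ± 0.08 (SE), and CENPA, the centromeric histone itself, by 0.28 ± 0.09, a call lost without the AGS JK136, MKN1 JK136 or MKN1 JK139 array (adjusted p 0.0522 to 0.0677). CENPK and NDC80, which belong to the inner kinetochore and to the microtubule-binding complex, were lower in MKN1 than in AGS by −0.33 ± 0.10 and −0.22 ± 0.09 (log2). The NDC80 call was lost (adjusted p 0.0507 to 0.155) without the AGS DMSO, AGS JK136, AGS JK139, MKN1 DMSO, MKN1 JK136 or SNU601 JK139 array, without the SNU601 line, or with no filter on low values.

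Kinesins, the motor proteins that move along or take apart spindle microtubules, held the largest difference of the list. KIF20A, the motor MKLP2 of the central spindle (cluster 16989636, chromosome 5), had levels in AGS of 7.09 with DMSO, 6.69 with Rhosin, 7.38 with JK136 and 7.22 with JK139. In MKN1 these were 8.63, 8.59, 8.49 and 8.41, and in SNU601 7.51, 7.36, 7.23 and 7.39. MKN1 stood above both without overlap, by 1.44 ± 0.13 over AGS (SE, adjusted p = 8.85e-07), and SNU601 stood at −1.16 ± 0.13 from MKN1 (adjusted p = 6.15e-06). KIF20B, the related motor MPP1, had the other order: SNU601 was 0.56 ± 0.10 above MKN1 and 0.35 ± 0.10 above AGS (SE), and the latter call was lost without the SNU601 Rhosin array (adjusted p 0.0509).

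Of the 9 kinesins, 6 were called higher and 1 lower in MKN1 than in AGS, against 35.3% and 31.0% of all genes tested. In SNU601 7 were called higher and 0 lower than in AGS, against 29.9% and 22.8% of all genes. Several of the calls of kinesins rested on single arrays or on the processing. KIF18A was called higher than in AGS in both lines (adjusted p = 0.0446 for MKN1 and 0.0426 for SNU601, limma), and both calls were lost without any 1 of the AGS DMSO, AGS Rhosin, AGS JK136, MKN1 JK136, MKN1 JK139, SNU601 JK136 or SNU601 JK139 arrays. The MKN1 call was also lost without the MKN1 Rhosin array and the SNU601 call without the SNU601 DMSO array, and adjusted p reached 0.176 and 0.167. With no filter both calls were lost (0.0766 and 0.0817). Array weights (0.0724) or leaving out the SNU601 line (0.0718) lost the MKN1 call, and quantile normalization (0.0718) lost the SNU601 call. KIF15 lost its call in MKN1 without the AGS Rhosin, AGS JK136, MKN1 Rhosin or MKN1 JK136 array (adjusted p 0.0652 to 0.102). Array weights (0.0652) or leaving out the SNU601 line (0.051) also lost the KIF15 call. KIF2C lost its call in SNU601 without the AGS DMSO, AGS Rhosin, AGS JK136, SNU601 DMSO, SNU601 Rhosin, SNU601 JK136 or SNU601 JK139 array (adjusted p 0.056 to 0.138). Quantile normalization (0.0768), no filter (0.0798) or leaving out the MKN1 line (0.0714) also lost the KIF2C call. KIF14, a motor needed late in cytokinesis, was the gene called lower in MKN1, by −0.40 ± 0.09 (SE). KIF23, MKLP1 of the centralspindlin complex, exceeded AGS by 0.56 in MKN1 and 0.25 in SNU601, the latter not called without the SNU601 DMSO array (adjusted p 0.0564). KIF11, Eg5, which pushes the spindle poles apart, was 0.38 above AGS and 0.39 above MKN1 in SNU601.

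TOP2A, topoisomerase II alpha, which untangles sister chromosomes, stood at 10.8 ± 0.10 in MKN1, 10.1 ± 0.09 in SNU601 and 9.97 ± 0.11 in AGS (SD), with the last pair overlapping. BIRC5, survivin of the passenger complex, was 0.74 ± 0.09 higher in MKN1 and 0.61 ± 0.09 higher in SNU601 than in AGS (SE). NUSAP1, a spindle-binding protein, was highest in SNU601, by 0.44 over MKN1 and 0.31 over AGS. The call over AGS was lost without the AGS DMSO, AGS Rhosin, SNU601 DMSO or SNU601 Rhosin array (limma, adjusted p 0.0648 to 0.107). Quantile normalization (0.0601) or no filter (0.0538) also lost that call. HMMR, the spindle and hyaluronan-binding protein RHAMM (cluster 16991859, chromosome 5), stood at 7.62 ± 0.34 in AGS, 8.37 ± 0.12 in MKN1 and 8.07 ± 0.12 in SNU601 (SD). Its spread in AGS was the widest of the list.

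The cytokinesis genes PRC1, ECT2 and RACGAP1 were all highest in SNU601, where all 3 exceeded both other lines. Of all genes tested, 29.9% were called higher in SNU601 than in AGS and 32.3% higher than in MKN1. Between MKN1 and AGS 0 of 3 were called, where 66.3% of all genes were. ECT2 (−0.17) was called there without the AGS JK136 array (limma, adjusted p 0.0419), with quantile normalization (0.0353) or with a trended and robust prior (0.031). PRC1 bundles the microtubules of the central spindle, and SNU601 exceeded AGS by 0.41 ± 0.08 and MKN1 by 0.33 ± 0.08 (SE). ECT2, the exchange factor that activates RhoA at the cell equator, exceeded AGS by 0.38 ± 0.08 and MKN1 by 0.55 ± 0.08. RACGAP1, which recruits ECT2, exceeded them by 0.22 ± 0.09 and 0.30 ± 0.09. The call of RACGAP1 against AGS was lost without any 1 of the AGS DMSO, AGS Rhosin, AGS JK136, MKN1 Rhosin, MKN1 JK139, SNU601 DMSO, SNU601 Rhosin or SNU601 JK139 arrays (limma, adjusted p 0.0506 to 0.192). That call was also lost with quantile normalization (0.0507), median centring (0.0529) or a trended and robust prior (0.0762). Leaving out the filter (0.0928) or the MKN1 line (0.0634) lost it too. The RACGAP1 call against MKN1 was lost without the SNU601 DMSO array (0.0512).

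None of the treatment differences passed the test. With limma, 0 of 8930 genes (0%) had an adjusted p under 0.05 for Rhosin, JK136, JK139 or their mean against DMSO, or for any of the 3 comparisons between compounds, and therefore 0 of the 35. At an unadjusted p under 0.05 the list held 3 genes for Rhosin against DMSO, 2 for JK136, 0 for JK139 and 2 for their mean, against 560, 469, 218 and 301 of all genes. Between compounds it held 2 for JK136 against Rhosin, 6 for JK139 against Rhosin and 2 for JK139 against JK136, against 812, 663 and 494 of all genes. The 95% interval of a single gene's difference reached a median of 0.22 to either side in the list, so smaller changes were not measurable gene by gene in 3 lines. That interval is not adjusted for the 8930 genes tested, and larger differences also missed the adjusted threshold. KIF18A with JK136 stood at −0.36 from DMSO without a call (limma, adjusted p 0.9017). The absence of calls therefore does not exclude changes larger than 0.22.

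As a group, the genes lay slightly lower with Rhosin and JK136 and near DMSO with JK139. With Rhosin 28 of 35 had a negative log2 fold change and the median was −0.11, where 4915 of 8930 genes were negative with a median of −0.015. With JK136 31 of 35 were negative with a median of −0.096, where 5003 of all genes were negative with a median of −0.019. With JK139 12 of 35 were negative with a median of 0.019, where 4873 of all genes were negative with a median of −0.011. These comparisons share the same 3 DMSO arrays, and the sign of the JK139 median changed to −0.052 without the MKN1 DMSO array, −0.020 without the AGS JK139 array, −0.025 without the MKN1 line and −0.010 with array weights.

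The medians differed from line to line, a difference that could not be tested for a single compound with 1 array per line and treatment. With Rhosin the median was −0.24 in AGS (30 of 35 lower), −0.135 in SNU601 (27 lower) and 0.031 in MKN1 (12 lower). With JK136 it was −0.13, −0.16 and −0.007 in the same lines, and with JK139 0.041, −0.091 and 0.12. Without the AGS Rhosin array, the median for Rhosin came to −0.034 with 23 of 35 lower, without the AGS line to −0.025, and without the SNU601 DMSO or AGS DMSO array to −0.058 or −0.060. Without the SNU601 DMSO array, the median for JK136 was −0.064, and without the MKN1 DMSO array or the MKN1 line it was −0.145 or −0.154. The median over all genes lay between −0.036 and 0.007 in each compound and line. In no line did any of the 35 pass 1.5-fold against DMSO, where 1.21% to 4.24% of all genes did. A difference of responses between lines was called by limma's interaction test in 0 of 8930 genes (0%), with 274 at an unadjusted p under 0.05, none of them in the list.

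**Figure D3:**
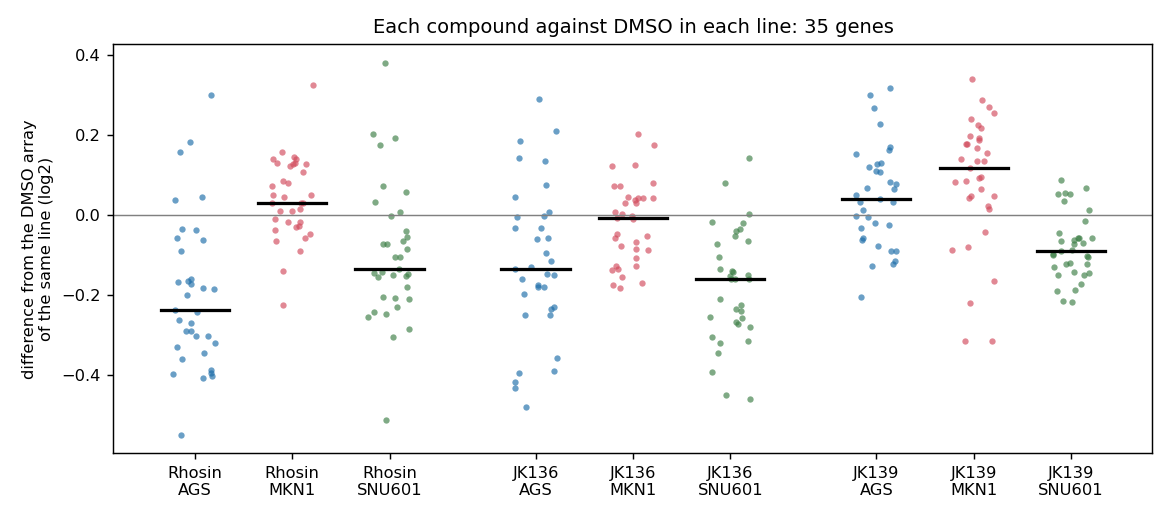
Log2 difference of each of the 35 genes (dots) between a compound's array and the DMSO array of the same line (y axis), for 3 compounds in 3 lines (x axis); black bars are medians. Rhosin in AGS has the lowest median (−0.24) and JK139 in MKN1 the highest (0.12), and no dot passes 1.5-fold (0.585).

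By role, all 4 spindle assembly and chromosome genes and all 3 cytokinesis genes were negative with Rhosin, with medians of −0.13 and −0.032. All 6 cyclin, CDK1 and CDC25 genes, all 3 anaphase genes and all 4 centromere genes were negative with JK136, with medians of −0.094, −0.069 and −0.18. Of the 9 kinesins, 7 were negative with each of Rhosin and JK136 (medians −0.10 and −0.089) and 2 with JK139 (median 0.017). None of these counts rests on called genes. With Rhosin the cytokinesis genes lay on opposite sides of DMSO by line, all 3 higher in MKN1 (median 0.128) and all 3 lower in AGS (−0.061) and SNU601 (−0.085). JK136 gave the same split, with all 3 higher in MKN1 (0.046) and all 3 lower in AGS (−0.131) and SNU601 (−0.159). With JK139 all 3 were higher in MKN1 (0.156) and AGS (0.041) and lower in SNU601 (−0.129). The compounds share the DMSO array of each line. Over the 3 lines Rhosin gave log2 fold changes of −0.032 for PRC1, −0.064 for ECT2 and −0.001 for RACGAP1, each with an interval that includes 0.

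KIF18A, a motor that shortens microtubules at the kinetochore and so damps chromosome movement (cluster 16736891, chromosome 11), stood lowest against DMSO. Its levels with DMSO, Rhosin, JK136 and JK139 were 7.49, 7.10, 7.01 and 7.60 in AGS, 7.54, 7.57, 7.41 and 7.66 in MKN1, and 7.85, 7.34, 7.39 and 7.66 in SNU601. JK136 gave the lowest or second lowest level in every line, with a log2 fold change of −0.36 ± 0.11 (SE, 95% interval −0.61 to −0.11) and an adjusted p of 0.9017. Rhosin gave −0.29 ± 0.11 (adjusted p = 0.7075), from −0.51 in SNU601, −0.39 in AGS and 0.031 in MKN1, and JK139 gave 0.013 ± 0.11.

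HMMR had the widest range in AGS. Its levels with DMSO, Rhosin, JK136 and JK139 were 7.72, 7.17, 7.58 and 7.99 in AGS, 8.30, 8.29, 8.35 and 8.54 in MKN1, and 8.25, 7.996, 7.985 and 8.06 in SNU601. The log2 fold change with Rhosin was −0.27 ± 0.13 (adjusted p = 0.7929), most of it from AGS, where the difference was −0.55. AURKB was lower than DMSO in all 3 lines with each compound, with mean differences of −0.13 with Rhosin, −0.26 ± 0.09 with JK136 (adjusted p = 0.9017) and −0.11 with JK139. CCNB1 was lower with Rhosin in all 3 lines, by −0.35, −0.091 and −0.24 in AGS, MKN1 and SNU601.

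CDC25B, the CDK1-activating phosphatase, stood the other way from most of the list with Rhosin. Its levels with DMSO, Rhosin, JK136 and JK139 were 8.39, 8.55, 8.03 and 8.18 in AGS, 9.07, 9.10, 8.896 and 8.76 in MKN1, and 8.11, 8.50, 8.19 and 8.20 in SNU601. Rhosin gave the highest level in every line. JK136 lay below Rhosin by −0.34 ± 0.10 (log2, SE, adjusted p = 0.4194) and JK139 by −0.335 ± 0.10 (adjusted p = 0.5697), both in 3 of 3 lines, and both comparisons use the same Rhosin arrays. CENPA was lower with JK136 than with Rhosin by −0.26 ± 0.10 (adjusted p = 0.4925), also in 3 of 3 lines.

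Between compounds, JK139 lay above JK136 for most of the list. The log2 difference was positive in 32 of 35 genes with a median of 0.13, where all genes had a median of 0.005 and 4622 of 8930 were positive. In each line 30 of 35 genes were higher with JK139, with medians of 0.17 in AGS, 0.10 in MKN1 and 0.11 in SNU601. In all 3 lines at once 22 of 35 genes (62.9%) were higher and 0 lower, against 15.3% and 13.1% of all genes. With each array left out in turn the median stayed between 0.091 and 0.16 and the genes higher between 29 and 33. No gene was called, so this is a description of the group and not of any single gene.

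KIF18A and CENPK held the highest differences between these compounds. KIF18A was higher with JK139 by 0.37 ± 0.11 (SE, 95% interval 0.13 to 0.62), with 0.255 in MKN1, 0.27 in SNU601 and 0.59 in AGS. CENPK, a subunit of the inner kinetochore (cluster 16996722, chromosome 5), had levels with DMSO, Rhosin, JK136 and JK139 of 6.83, 6.67, 6.41 and 7.06 in AGS, 6.32, 6.34, 6.39 and 6.59 in MKN1, and 6.76, 6.51, 6.37 and 6.64 in SNU601. JK139 exceeded JK136 in all 3 lines, by 0.37 ± 0.11, and the adjusted p was 0.8835 for both genes. In AGS these were the only 2 of the 35 past 1.5-fold, where 4.01% of all genes were. At the other end, BIRC5 had −0.051, KIF20A −0.027 and KIF4A −0.011.

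**Figure D4:**
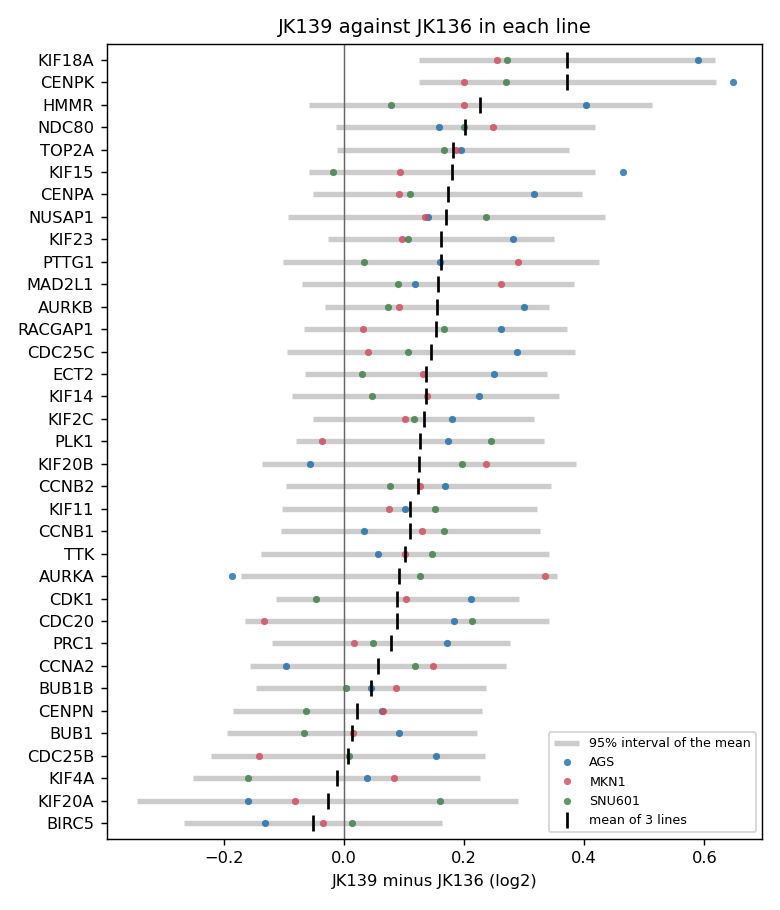
Log2 difference JK139 minus JK136 (x axis) for the 35 genes (rows, sorted by the mean) in AGS, MKN1 and SNU601 (dots), with the mean of the 3 lines (black tick) and its 95% interval from limma (grey bar). The means of 32 genes lie right of 0, and the intervals of KIF18A and CENPK alone leave 0 out.

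JK139 lay above Rhosin in 29 of 35 genes, with a median of 0.13, and the lines differed in size, at 0.24 in AGS (32 of 35 higher), 0.071 in MKN1 (24) and 0.033 in SNU601 (19). Without the AGS Rhosin array the median was 0.054 with 24 higher, and without the AGS line it was 0.034 with 22 higher. HMMR was higher with JK139 than with Rhosin by 0.38 ± 0.13 (SE, adjusted p = 0.6003), from 0.068 in SNU601 to 0.26 in MKN1 and 0.82 in AGS. KIF18A had 0.30 ± 0.11, CCNB1 0.25 ± 0.10, KIF15, a spindle motor that backs up KIF11, 0.26 ± 0.11 and CENPK 0.26 ± 0.11, each in 3 of 3 lines. JK136 and Rhosin differed little as a group, with 20 of 35 genes lower with JK136 and a median of −0.014, and the sign of this median turned when the MKN1 Rhosin array (0.037), the SNU601 Rhosin array (0.018), the MKN1 line (0.038) or the SNU601 line (0.012) was left out, or with median centring (0.008). In AGS KIF20A stood 0.69 higher with JK136 than with Rhosin, the only gene of the list past 1.5-fold there (7.6% of all genes were), and it was lower in MKN1 (−0.10) and SNU601 (−0.12).

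Within a line, the levels of most of the genes varied together across the 4 treatments. After each line's mean was removed, the 595 pairs of genes had a median Pearson's r of 0.43 over the 12 arrays, and 82.4% of pairs were positive, where pairs of all genes tested had a median of 0.006. The arrays were normalized together, and the values are a description. HMMR, MAD2L1 and CCNB2 followed the others most closely, with median r of 0.67, 0.66 and 0.655 to the other genes. CDC25B, at −0.32, and CDC20, at −0.18, ran against them, and PLK1, at 0.038, and CENPA, at 0.13, followed them least of the rest. The spread of a gene over the 4 arrays of a line had a median SD of 0.14 in AGS, 0.084 in MKN1 and 0.11 in SNU601, against 0.15, 0.12 and 0.11 for all genes.

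**Figure D5:**
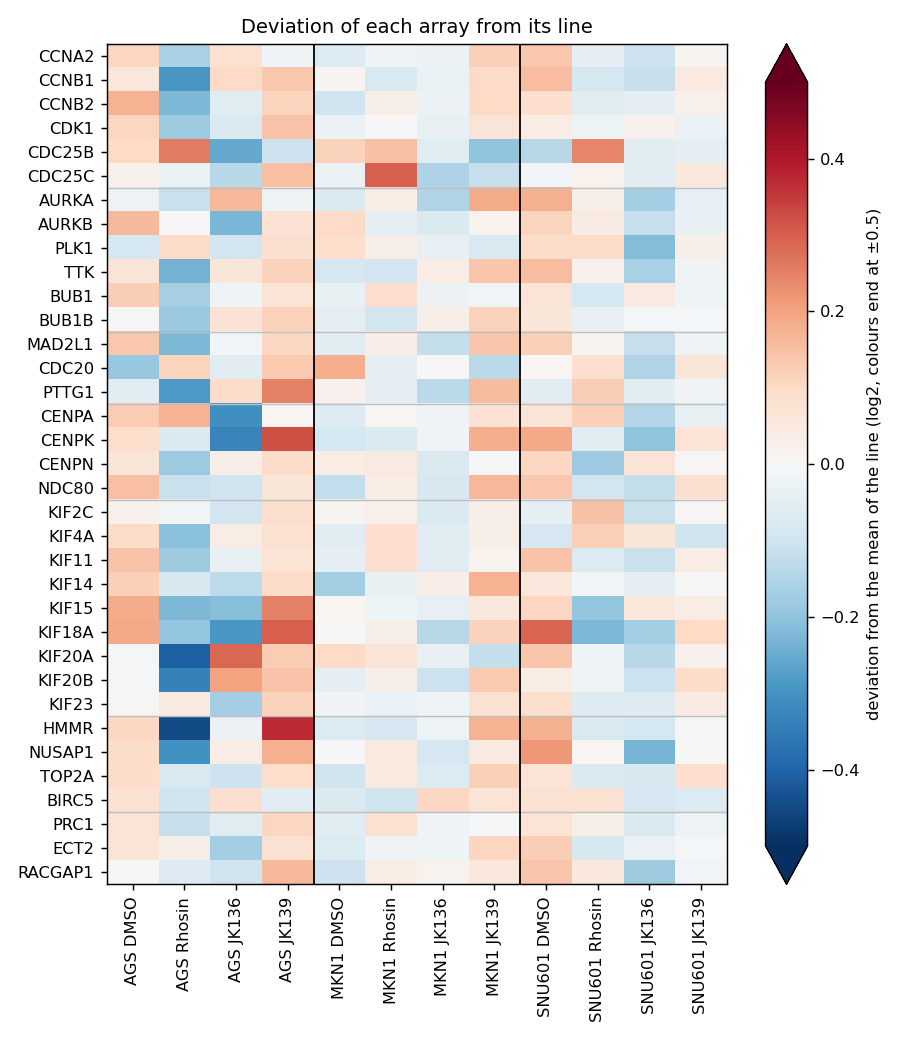
Deviation of each array (columns, by line and treatment) from the mean of its line (colour, log2, ending at ±0.5) for the 35 genes (rows, grouped by role). In AGS the Rhosin column is mostly blue and the JK139 column mostly red, in MKN1 the JK139 column is mostly red, and CDC25B goes against these columns.

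The median deviation of the list from the line mean gives the same picture by array. In AGS it was 0.087 with DMSO, −0.16 with Rhosin, −0.058 with JK136 and 0.11 with JK139. In MKN1 it was −0.050, 0.028, −0.039 and 0.072, and in SNU601 0.090, −0.018, −0.10 and 0.003. JK139 stood above JK136 in every line, while DMSO was high in AGS and SNU601 and low in MKN1.

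Other genes of the pathway were read from lists by name. Of 61 further mitosis genes measured, 46 were negative with Rhosin (median −0.083), 51 with JK136 (median −0.092) and 35 with JK139 (median −0.010), and 0 were called. Between JK139 and JK136 they had a median of 0.054 with 43 of 61 higher. The 25 measured genes of G1/S and DNA replication were negative in 23 with Rhosin (median −0.14), 17 with JK136 (median −0.060) and 19 with JK139 (median −0.027). Between JK139 and JK136 their median was −0.034 with 11 of 25 higher, and the difference between the lists was not tested.

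Of 10 measured regulators of mitotic transcription, 0 were called with any compound. FOXM1, the transcription factor of late cell cycle genes, had −0.11 with Rhosin, −0.16 with JK136 and −0.052 with JK139. Between lines it was higher than in AGS by 0.38 ± 0.08 in MKN1 and 0.34 ± 0.08 in SNU601 (SE). MYBL2, which codes for B-MYB, was 0.84 ± 0.08 higher in MKN1 than in AGS and lower in SNU601 than in AGS, by −0.35 ± 0.08. MKI67, the proliferation marker, was 0.55 ± 0.09 higher in SNU601 than in AGS and had −0.071 in MKN1. Only 1 of 7 CDK inhibitor genes listed was measured, and it lay below the filter.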

How the data were processed

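Per the labels, total RNA of 12 samples was hybridized to 12 Affymetrix Human Gene 2.0 ST arrays. The deposited values are log2 signals, and the authors made them with RMA in Affymetrix Expression Console, per the submitters' processing notes. RMA removes background, brings arrays to 1 distribution and summarises probes, which can shrink differences that move most genes one way. Versions and annotation release are not given in the sources used here, and the table held 0 columns of other samples.

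A symbol was given here for 16098 of 53617 transcript clusters. Where a symbol had several clusters, the brightest on average was kept (each of the 35 genes had 1), and genes below the 40th percentile of means were left out. The test was limma's (version 3.58.1, R 4.3.3) with fixed terms for line and treatment and 6 residual degrees of freedom, and p-values were adjusted by Benjamini-Hochberg over the 8930 genes of each comparison, not across comparisons. A fit in which the response to a compound could differ by line left 4 residual degrees of freedom. The scripts were tested on simulated data. The number of arrays limits the precision.

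The members, the lists and the rules were chosen with earlier results of these data known. Any gene of the list could be named. By rule, values in full were for up to 4 per direction with 1 sign in 3 lines (treatments), 5 per direction among those called (lines), the 6 with the smallest interaction p, HMMR, CCNB1, PLK1, AURKB, ECT2, RACGAP1, KIF23, ANLN (not measured) and PRC1. From other lists these were up to 3 each among those called, FOXM1, CDKN1A and RHOA (not reported here). Further genes were chosen after their values were seen. Alternatives changed the array scaling, the filter, the cluster rule, the prior, the weights, the block and the threshold, and left out each array or line. Chromosomes and promoters are RefSeq's (GRCh38.p14), and the coordinates of clusters were not used here.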

Additional observations from a re-analysis of the deposited data

Results flagged for a closer look

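Some genes lay on 1 side of DMSO with all 3 compounds in 1 line and on the other side with all 3 in another. Between AGS and MKN1 this held for 8 of the 35 genes (22.9%), against 11.5% of all genes tested, and between MKN1 and SNU601 for 9 (25.7%), against 13.8%. Between AGS and SNU601 it held for 0 of the 35, against 7.53%. The 3 differences of a line share 1 DMSO array, so they are not independent. The difference of each pair of lines was not tested by itself. An F test for a response to the 3 compounds together that differs by line called 0 of 8930 genes, where 274 had an unadjusted p under 0.05. In the list CDC20 had the smallest p, 0.0995 (limma, adjusted p = 0.9998).

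The mean difference from DMSO in AGS minus that in MKN1 was 0.494 for CDC20, which lay above DMSO in AGS (0.252) and below it in MKN1 (−0.242). For the other 7 genes AGS lay below DMSO and MKN1 above, with −0.383 for KIF14, −0.364 for NDC80, −0.363 for CCNB2, −0.255 for TOP2A, −0.235 for CCNA2, −0.216 for BUB1 and −0.203 for KIF4A.

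The same value for MKN1 minus SNU601 was positive in all 9 genes, with MKN1 above DMSO and SNU601 below. It was 0.374 for CENPK, 0.344 for NDC80, 0.325 for RACGAP1, 0.303 for KIF14, 0.272 for CCNA2, 0.256 for ECT2, 0.246 for CCNB2, 0.159 for PRC1 and 0.138 for BUB1. The cytokinesis genes PRC1, ECT2 and RACGAP1 all stand among these 9. The median deviation of the list on the MKN1 DMSO array was −0.050, the lowest of that line, and on the DMSO arrays of AGS and SNU601 it was 0.087 and 0.090. The part of that array in these values was not tested.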

How the results depend on the processing

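The precision is limited by the number of arrays. Counts of called genes of the list stayed at 0 for each treatment comparison and the interaction under every alternative run, and between 20 and 27, 17 and 25, and 20 and 24 for MKN1 against AGS, SNU601 against AGS and SNU601 against MKN1. Over all genes, JK136 against DMSO gave 1 called gene with no filter, Rhosin against DMSO 1 with a trended and robust prior, and JK136 against Rhosin 2 with that prior and 1 at an adjusted p under 0.1. With an array or a line left out, JK136 against Rhosin gave 0 to 3, with 3 without the MKN1 JK136 array. With no replicate block, the call of HMMR for SNU601 against MKN1 was lost (−0.295, adjusted p 0.0715), as were those of KIF18A for MKN1 and for SNU601 against AGS (0.135 and 0.134). That fit changed no other call of the list, and line as a random block, run for the treatment comparisons, left 0 of the list called. The HMMR call was also lost with no filter (0.0643) and without the MKN1 Rhosin, MKN1 JK136, MKN1 JK139, SNU601 JK136 or SNU601 JK139 array (0.0767 to 0.166). Of 2777 recomputed values of named genes, 70 changed sign, none of a called value, and the causes were not tested. The list's median for SNU601 against MKN1 lay between −0.045 and 0.051, so it has no direction.

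With an array or a line left out, values that changed sign ranged as follows. For Rhosin against DMSO they ranged over PLK1 −0.034 to 0.095, RACGAP1 −0.078 to 0.084, PRC1 −0.112 to 0.044, ECT2 −0.136 to 0.007, KIF23 −0.086 to 0.01 and CENPA −0.011 to 0.119. For JK139 against DMSO they ranged over CCNB1 −0.021 to 0.081, PLK1 −0.113 to 0.055, ECT2 −0.058 to 0.095, PRC1 −0.056 to 0.044, HMMR −0.022 to 0.255 and RACGAP1 −0.02 to 0.16. For JK136 against Rhosin they ranged over ECT2 −0.102 to 0.021, KIF23 −0.108 to 0.008, HMMR −0.008 to 0.237 and PRC1 −0.123 to 0.006. For JK139 against Rhosin they ranged over AURKB −0.017 to 0.068, RACGAP1 −0.026 to 0.12 and PRC1 −0.066 to 0.087. For JK136 against DMSO they ranged over RACGAP1 −0.206 to 0.014. For the compounds taken as 1 mean against DMSO they ranged over PLK1 −0.118 to 0, ECT2 −0.125 to 0.003, RACGAP1 −0.091 to 0.072 and KIF23 −0.063 to 0.007. With quantile normalization of the arrays the sign changed for RACGAP1 0.019, KIF23 0.015 and PRC1 0.009 in Rhosin against DMSO, PLK1 0.002 and PRC1 0.001 in JK139 against DMSO, RACGAP1 0.004 and KIF23 0.005 in the compounds taken as 1 mean and AURKB −0.016 and PRC1 −0.008 in JK139 against Rhosin. With array weights the sign changed for CCNB1 −0.004 and ECT2 −0.016 in JK139 against DMSO and AURKB −0.003 and PRC1 −0.009 in JK139 against Rhosin.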

Other observations

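Mitosis genes outside the list were also compared between lines. Of 61 measured, with limma at an adjusted p under 0.05, 32 were called higher and 10 lower in MKN1 than in AGS, and 30 higher and 10 lower in SNU601 than in AGS. Between SNU601 and MKN1, 15 were higher and 28 lower. These are 68.9%, 65.6% and 70.5% of the 61, against 66.3%, 52.7% and 63.4% of all genes tested. TRIP13, the ATPase that takes apart the mitotic checkpoint complex, was 2.38 ± 0.09 higher in MKN1 than in AGS (log2, SE), and SPAG5, the spindle protein astrin, 2.095 ± 0.08. SMC2, a condensin subunit, was higher by 1.705 ± 0.09.

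Of 25 measured genes of G1/S and DNA replication, 15 were called higher and 3 lower in MKN1 than in AGS. In SNU601 16 were higher and 5 lower than in AGS, and 9 were higher and 8 lower than in MKN1. These are 72%, 84% and 68% of the 25, against 66.3%, 52.7% and 63.4% of all genes tested. GINS2, a subunit of the replicative helicase, was 1.535 ± 0.15 higher in SNU601 than in AGS, and MCM3 and MCM2, helicase subunits too, were 1.12 ± 0.10 and 1.09 ± 0.10 higher. CCNE2 and CCNE1, the E cyclins, stood at −1.40 ± 0.14 and −1.27 ± 0.13 in SNU601 from MKN1. RHOB, a relative of RHOA, was highest in AGS, with differences of −1.16 ± 0.16 in MKN1 and −1.52 ± 0.16 in SNU601.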
